A study of Zea mays with 16 samples.

Results

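Well watered kernels of RIL66 were compared with well watered kernels of RIL68. These are maize (Zea mays) recombinant inbred lines, inbred by selfing after a cross until each line holds 1 fixed genotype, and the submitters describe both as drought susceptible. The comparison used 1 channel of each 2-colour array, the one that carried RNA from the irrigated plants. This gave 4 RIL66 channels and 4 RIL68 channels, on 8 of the 16 arrays. The stressed RNA of the same line was in the other channel, and the tolerant lines RIL60 and RIL78 fill the other 8 arrays.

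All plants grew in an open field, where irrigation kept the soil of the well watered plots at about 30% moisture by dry weight and that of the stressed plots at about 16%. Kernels were taken 10 days after pollination and pooled over several ears before extraction, and the poly(A) RNA was labelled. In RIL66 the well watered RNA carried Cy5 on replicates 1 and 2 and Cy3 on replicates 3 and 4. In RIL68 the dyes were the other way round, so each dye held 2 arrays of each line. The 4 arrays of a line are described as hybridisation replicates. Nothing in the labels says that they came from separate extracts, so the spread behind the p-values is that of the hybridisations and could be purely technical.

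A maize kernel at this age consists mostly of young endosperm, the tissue that will store starch and protein, with a small embryo inside and the maternal pericarp around it. Young kernels draw their carbon from the mother plant, and drought around flowering is known to reduce kernel number. Recombinant inbred lines of a cross carry different mixtures of the parents' alleles. A transcript whose abundance depends on 1 locus is therefore often high in some lines and low in others without any treatment. In a pool of whole kernels, fewer cells of a type and less RNA per cell cannot be told apart. The files name probes by ID only, and 0 of the 1000 IDs matched any of the 49888 entries of the RefSeq gene table used here. No gene, tissue marker or sequence could be assigned, and the kernel label was not checked against marker genes.

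Measures of array quality varied within both lines, and none of the 4 compared passed between them. In the well watered channel the median local background was 333 ± 112 intensity units in RIL66 and 740 ± 402 in RIL68 (SD, n = 4 arrays; two-sided exact permutation test, p = 0.0571, adjusted over 4 measures p = 0.229). The smallest p that 4 against 4 arrays allow is 0.0286. Spots above background, meaning by more than 2 SDs of the local background, made up 54.9% ± 22.5 of the probe spots in RIL66 and 36.9% ± 17.7 in RIL68 (exact permutation p = 0.229, adjusted 0.257). That difference of 18.0 percentage points became -1.06 when 1 SD was asked for in place of 2. Replicate 3 of RIL68 stood apart: its median background was 1299, its duplicate spots correlated at 0.773 against 0.904 to 0.976 on the other 7 arrays, and 21 of the 51 probe spots that the authors had marked for exclusion lay on it. Over all probes, each of the 8 arrays correlated better on average with the other arrays of its own line than with those of the other line.

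Of the 1000 probes, 19 differed between the lines (1.9% of those tested), 7 with more RNA in RIL66 (0.7%) and 12 with more in RIL68 (1.2%). Probe a116pe0520 was 8.34-fold higher in RIL66, while a116pe0026, a116pe0012 and a116pe0094 were 9.95-fold, 9.17-fold and 8.42-fold higher in RIL68. Without background correction these 4 differences shrank to 2.06, -2.08, -2.31 and -1.66 on the log2 scale, from 3.06, -3.31, -3.20 and -3.07. The 19 differences ran from 0.98 to 3.31 on the log2 scale, with a median size of 1.55 against 0.27 over all probes. A difference of 2-fold or more was measured for 18 of the 19, and of 4-fold or more for 6. Over all probes, 55 (5.5%) had a difference of 2-fold or more. Levels are log2 intensities after background correction, scaled between the arrays of each dye, and were tested with limma with the dye as a term.

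For all 19, both arrays of one line lay above both arrays of the other within Cy5 and again within Cy3, in one direction, which was true of 167 of all 1000 probes (16.7%). A dependence of the line difference on the dye was called for 0 probes (0%) by limma's interaction term. The lowest adjusted p was 0.9998, and 14 probes (1.4%) fell under 0.05 before adjustment. That unadjusted count ran from 6 to 82 with 1 array left out. With 2 arrays per line and dye, the test could miss such a dependence. Just inside the threshold were a116pe0996 (difference -1.39, adjusted p = 0.0305) and a116pe0665 (-1.21, adjusted p = 0.0448). Just outside were a116pe0799 at 1.28 and a116pe0083 at 1.76, both with an adjusted p of 0.0600.

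The line and the day written in the file headers nearly coincided. The 8 arrays fall on 4 days, and the 1 day with both lines holds 1 array of RIL66 and 3 of RIL68. With the day as a block, limma called 0 probes and 42 had an unadjusted p under 0.05. Within the shared day alone it also called 0, with 50 unadjusted. With day and dye as terms the line difference is that of 1 array against 1, RIL66 replicate 4 minus RIL68 replicate 1, both in Cy3. Its sign was fixed by the lack of overlap within Cy3 and says nothing more. For the 19 probes that difference was 0.621 to 1.70 times the values above, with a smallest adjusted p of 0.0838. Line and day cannot be told apart further on these arrays.

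**Figure D1:**
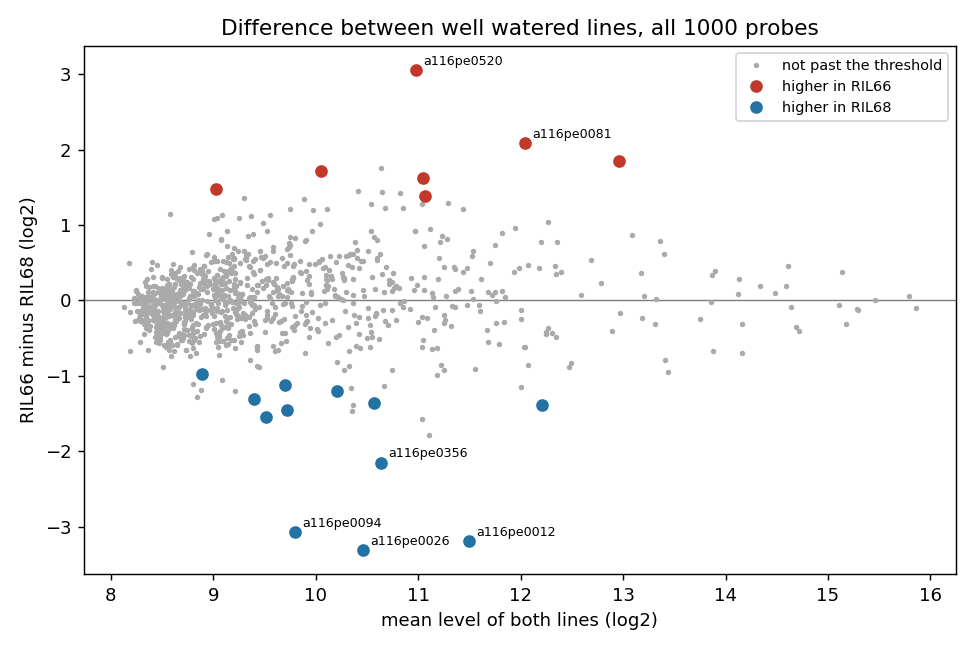
Difference between RIL66 and RIL68 in well watered kernels (vertical axis, log2) against the mean level of both lines (horizontal axis, log2), with 1 point for each of the 1000 probes. The 7 red and 12 blue points passed the threshold, and most grey points lie near 0.

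Among the probes higher in RIL66, a116pe0520 had the largest difference. Its levels in RIL66 were 11.45 and 12.11 in Cy5 and 13.15 and 13.31 in Cy3. In RIL68 they were 9.10 and 8.61 in Cy5 and 10.29 and 9.79 in Cy3. All 4 RIL66 arrays lay above all 4 of RIL68, where only 2 arrays were above background. The difference was 3.06 (SE 0.23, adjusted p = 7.43e-05), 2.93 in Cy5 and 3.19 in Cy3.

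Probe a116pe0081 read 12.57 and 12.83 in Cy5 and 13.79 and 13.17 in Cy3 in RIL66. In RIL68 it read 10.69 and 10.44 in Cy5 and 11.56 and 11.31 in Cy3. Here too the lines did not overlap, and signals were above background on 4 of 4 arrays of both lines. The difference was 2.09 (SE 0.21, adjusted p = 0.000597), or 4.25-fold.

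The other 5 probes higher in RIL66 differed by 1.39 to 1.85. Probe a116pe0535 was bright in both lines, at 13.74 to 14.17 in RIL66 and 11.39 to 13.09 in RIL68. Its upper value in RIL68 came from replicate 2, and the difference was 1.85 (SE 0.32, adjusted p = 0.0177). Probe a116pe0104 differed by 1.71 (SE 0.24, adjusted p = 0.00541), and was above background on 4 arrays of RIL66 and 2 of RIL68. Probes a116pe0974 and a116pe0975 carry consecutive IDs and lie at the same row and column of different sub-grids of the slide. They differed by 1.63 (SE 0.25, adjusted p = 0.00853) and 1.39 (SE 0.23, adjusted p = 0.0146). Whether they report 1 transcript cannot be told from the IDs or the positions. Probe a116pe0973, with the ID before them, has the same row and column in another sub-grid. It lay on the other side, at -0.87 (SE 0.25, adjusted p = 0.0910 in limma), and did not pass.

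Probe a116pe0849 was above background on 3 of the 4 RIL66 arrays and on 0 of the 4 RIL68 arrays, so its level in RIL68 has only an upper bound. RIL66 read 9.45 to 10.32 and RIL68 7.80 to 8.65 (adjusted p = 0.0223 in limma). On these corrected levels the bound was 2.29-fold higher in RIL66, and it depends on the correction. Without background correction the measured difference was 0.59 on the log2 scale. The probe passed in 4 of the 8 fits with 1 array left out. On RIL68 replicate 1, which read 7.80, its local background was 1295, against an array median of 758. The bound sets the mean of the bright line against the mean, over the dim arrays, of the higher of the dimmest signal above background and the probe's own. Over all probes, 7 (0.7%) were above background on all 4 RIL66 arrays and on no RIL68 array, and 1 (0.1%) the other way round. The RIL68 arrays had the higher mean background, and its part in these counts was not tested.

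**Figure D2:**
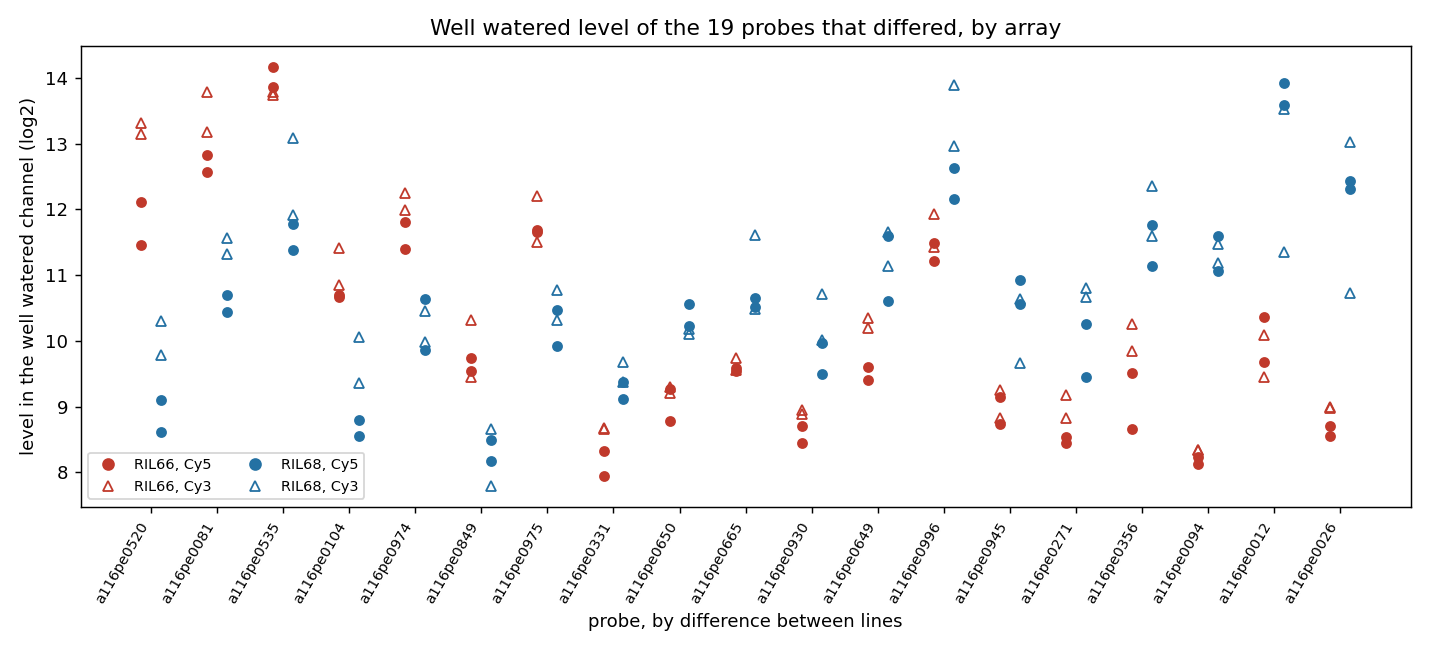
Well watered level (vertical axis, log2) of the 19 probes that differed, on each of the 8 arrays, ordered by the difference from highest in RIL66 on the left to highest in RIL68 on the right. Red stands for RIL66, blue for RIL68, filled circles for Cy5 and open triangles for Cy3. Within a dye the lines do not overlap for any of the 19, and RIL68 replicate 2 is the low blue triangle of a116pe0012 and a116pe0026.

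Of the probes lower in RIL66, a116pe0094 had the lowest p of all. RIL66 read 8.23 and 8.13 in Cy5 and 8.33 and 8.35 in Cy3, which is above background on 0 of 4 arrays. RIL68 read 11.07 and 11.60 in Cy5 and 11.47 and 11.19 in Cy3, above background on 4 of 4. The measured difference was -3.07 (SE 0.20, adjusted p = 2.88e-05). On these corrected levels the bound was 8.05-fold higher in RIL68, and it too depends on the correction. Plain background subtraction gave a difference of -2.21, and no correction -1.66. Probe a116pe0094 is the 1 probe of 1000 that was above background on all RIL68 arrays and on no RIL66 array.

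Probe a116pe0026 read 8.56 to 8.99 in RIL66. In RIL68 it read 13.02, 12.43 and 12.32 on replicates 1, 3 and 4 and 10.73 on replicate 2. Probe a116pe0012 read 9.46 to 10.36 in RIL66, 13.53, 13.59 and 13.92 on replicates 1, 3 and 4 of RIL68, and 11.35 on replicate 2. Replicate 2 thus lay below the rest of its line in both probes, yet above every RIL66 array. The differences were -3.31 (SE 0.43, adjusted p = 0.00413) and -3.20 (SE 0.45, adjusted p = 0.00541). Without replicate 2 of RIL68 they were -3.87 and -3.74.

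Probe a116pe0356 read 8.65 to 10.25 in RIL66 and 11.14 to 12.36 in RIL68, with a difference of -2.15 (SE 0.28, adjusted p = 0.00420). Its lowest array in RIL68 lay above its highest in RIL66. Probe a116pe0271 was above background on 1 array of RIL66 and 4 of RIL68, and differed by -1.55 (SE 0.23, adjusted p = 0.00656). The other 7 probes, a116pe0945, a116pe0996, a116pe0649, a116pe0930, a116pe0665, a116pe0650 and a116pe0331, differed by -1.46 to -0.98, with adjusted p between 0.0171 and 0.0448. The smallest difference, that of a116pe0331, was also the dimmest measurement, with signals above background on 1 array of RIL66 and 2 of RIL68. Probes a116pe0649 and a116pe0650 again have consecutive IDs and the same row and column in different sub-grids. The 19 probes were spread over the slide, with 3, 6, 6 and 4 in its 4 columns of sub-grids, which hold 250 probes each.

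The 3 probes with the highest mean level, a116pe0894, a116pe0986 and a116pe0575, did not pass. Probe a116pe0894 read 39386 to 65442 intensity units before correction, a116pe0986 55085 to 63695 and a116pe0575 36960 to 58587. These values lie toward the upper end of the scanner's range, which leaves little room for a difference, above all for a116pe0894. Quantile scaling also gives the brightest probes of each array nearly equal levels. Probe a116pe0894 differed by -0.10 (SE 0.18, adjusted p = 0.821 in limma), a116pe0986 by 0.06 (SE 0.17, 0.899) and a116pe0575 by 0.01 (SE 0.19, 0.983). With median scaling they stood at -0.37, -0.17 and -0.30, where the median of all probes was -0.145. Among the probes known for an unequal drought response in these lines, a116pe0973 stood at -0.87 well watered (SE 0.25, adjusted p = 0.0910) and a116pe0267 at -0.06 (SE 0.35, adjusted p = 0.946).

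Each susceptible line was also set against the mean of the tolerant lines RIL60 and RIL78, in a fit to all 16 well watered channels. Over all probes, 38 (3.8%) differed between RIL66 and that mean, and 63 (6.3%) between RIL68 and that mean, 25 higher and 38 lower in RIL68 (6 and 26 with median scaling). Of the 19 probes, 7 passed for RIL66 alone, 10 for RIL68 alone and 2 for both. RIL60 and RIL78 differed from each other at 6 of the 19, where their mean is a level that neither line has. At those 6 the split does not say which line stood apart. These contrasts share the RIL66 and RIL68 arrays with the comparison that chose the 19, so the counts are a description. Levels of this fit are scaled over more arrays and are given on their own scale. The fit had line and dye as terms and not the header day, which nearly coincided with the line for RIL66 and RIL68.

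RIL66 was the line apart at a116pe0094, with 8.28 ± 0.16 (SD, n = 4 arrays) against 11.50 ± 0.51 in RIL60, 11.27 ± 0.18 in RIL78 and 11.79 ± 0.42 in RIL68. The other 3 lines lay within 1 log2 unit of each other. At a116pe0081 it was high, with 13.60 ± 0.31 against 10.86 ± 0.47, 10.42 ± 0.88 and 11.44 ± 0.26. At a116pe0012 RIL66 read 10.24 ± 0.64, while RIL60 read 14.44 ± 0.36, RIL78 15.16 ± 0.33 and RIL68 13.52 ± 1.36. At a116pe0026 the values were 8.94 ± 0.09 in RIL66, 14.12 ± 0.32 in RIL60, 13.62 ± 0.55 in RIL78 and 12.62 ± 1.16 in RIL68. RIL66 differed from the tolerant mean by -4.56 and -4.93 at these 2 probes (adjusted p = 3.57e-07 and 3.95e-08 in limma). RIL68 also differed from that mean at a116pe0026, by -1.25 (adjusted p = 0.0413 in limma). Probes a116pe0026 and a116pe0520 are those that passed for both lines.

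RIL68 was the line apart at a116pe0104, at 9.39 ± 0.55 against 11.02 ± 0.44 in RIL60, 11.57 ± 0.33 in RIL78 and 11.34 ± 0.23 in RIL66. It was also low at a116pe0849, with 8.37 ± 0.45 (no array above background) against 9.53 ± 0.17, 9.78 ± 0.28 and 10.10 ± 0.44. At a116pe0649 it had the highest mean, 11.70 ± 0.50 against 9.70 ± 0.22, 10.66 ± 0.41 and 10.22 ± 0.24. Its difference from the tolerant mean there was 1.52 (adjusted p = 0.000853 in limma). RIL60 and RIL78 also differed at this probe, with RIL60 minus RIL78 at -0.96 (adjusted p = 0.0280 in limma). That mean is thus a level that neither line has, and does not show RIL68 as the line apart.

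At some probes the 4 lines formed pairs that crossed the classes. Probe a116pe0520 was high in RIL60 (13.90 ± 0.13) and RIL66 (13.03 ± 0.64) and low in RIL78 (9.06 ± 0.38) and RIL68 (9.69 ± 0.62). Probe a116pe0271 was high in RIL60 (10.32 ± 0.10) and RIL68 (10.68 ± 0.46) and low in RIL78 (8.63 ± 0.10) and RIL66 (8.86 ± 0.19), and a116pe0945 split the lines into the same pairs. RIL60 and RIL78 differed from each other at 6 of the 19 probes, a116pe0520, a116pe0535, a116pe0356, a116pe0271, a116pe0945 and a116pe0649. Over all probes they differed at 100 (10%). The largest of these 6 was a116pe0520, at 4.84 (adjusted p = 1.42e-09).

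**Figure D3:**
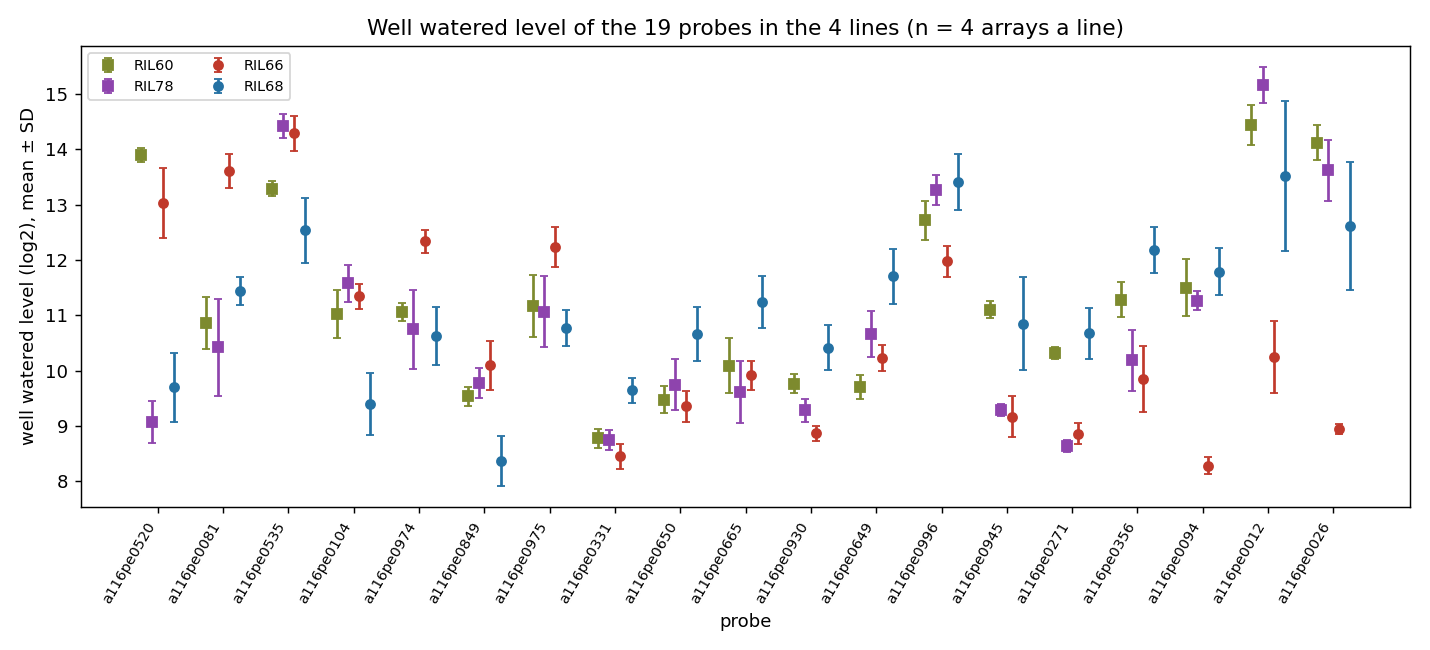
Well watered level (vertical axis, log2, mean ± SD of 4 arrays) of the 19 probes in the 4 lines, in the scaling over all 16 arrays. Squares are the tolerant lines RIL60 and RIL78 and circles the susceptible lines RIL66 and RIL68. RIL66 lies alone below the other 3 lines at a116pe0094, a116pe0012 and a116pe0026, while a116pe0520 splits the lines into RIL60 with RIL66 and RIL78 with RIL68.

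The stress channels of the same arrays were tested in the same way. They share the slides and spots of the well watered channels, so they are no independent repeat. Under stress 13 of 1000 probes differed between the lines (1.3%), 6 higher in RIL66 (0.6%) and 7 lower (0.7%), or 5 and 3 with median scaling. Of the 19 probes, 17 had the same sign in both channels. The share with the same sign over all 1000 probes was not counted. Of the 19, 8 passed in both channels, namely a116pe0520, a116pe0081, a116pe0104, a116pe0974, a116pe0975, a116pe0094, a116pe0356 and a116pe0945. Probe a116pe0520 differed by 3.12 under stress (SE 0.40, adjusted p = 0.00183) and by 3.06 well watered. With the header day as a block, 0 probes passed under stress and 26 had an unadjusted p under 0.05.

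The 2 probes whose sign turned were a116pe0012 and a116pe0026. Under stress a116pe0026 read 14.19, 13.89, 14.01 and 14.20 on the 4 RIL66 arrays, and 12.23, 14.26, 11.90 and 11.81 on those of RIL68. Probe a116pe0012 read 14.95, 14.95, 14.37 and 14.76 in RIL66 and 12.58, 15.31, 12.56 and 13.23 in RIL68. RIL66 was thus low well watered and high under stress, and RIL68 replicates 1, 3 and 4 were higher well watered than under stress. Replicate 2 of RIL68 went the way of RIL66, lower well watered and higher under stress in both probes. The stress differences of 1.52 (SE 0.43, adjusted p = 0.121) and 1.34 (SE 0.53, adjusted p = 0.277) did not pass.

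The stress channel of RIL66 had means of 14.07 at a116pe0026 and 14.76 at a116pe0012. These lie near the well watered levels of RIL60 and RIL78 given above, which come from the scaling over 16 arrays. The dye that each file header names for channel 1 matched the label on all 16 arrays, and the labels were kept. That match concerns the names of the dyes and cannot show which RNA was labelled with which dye. As a check on what rests on them, the channel labelled stressed in RIL66 was set against the well watered channel of RIL68, an alternative chosen after seeing the data. It called 23 probes, 14 of them among the 19. The differences of a116pe0026 and a116pe0012 became 1.89 (adjusted p = 0.0503) and 1.55 (adjusted p = 0.155), whereas a116pe0520 and a116pe0094 stood at 3.34 and -2.41. The direction at a116pe0012 and a116pe0026 therefore depends on which RIL66 channel is taken as well watered, and at the other 17 probes it does not.

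Whether the line difference itself changed with watering was tested on the difference of the channels of each array, a test added after seeing the data. It called 6 probes (0.6%), of which 4 were among the 19. The well watered minus stressed values of the line difference were -4.84 for a116pe0026 (SE 0.73, adjusted p = 0.0154), -4.53 for a116pe0012 (SE 0.84, 0.0284), -1.21 for a116pe0649 (SE 0.22, 0.0284) and -1.20 for a116pe0974 (SE 0.18, 0.0154). The others were a116pe0973 at 1.32 (SE 0.21, 0.0173) and a116pe0174 at -1.45 (SE 0.26, 0.0284), the latter chosen after its value was seen. At a116pe0974 the lines differed by 1.63 well watered and 2.83 under stress, and at a116pe0649 by -1.36 and -0.16. These calls rest on few arrays: 0 passed without replicate 1 or 4 of RIL66 or replicate 1 of RIL68, 1 without replicate 3 of RIL66, 2 without replicate 2 of RIL66 and 3 without replicate 4 of RIL68. With the replicate number as a block 0 passed, with adjusted p = 0.0540 for both a116pe0026 and a116pe0012. With the header day as a block this test, too, rests on RIL66 replicate 4 against RIL68 replicate 1 alone, so its calls are not given. Without replicate 2 of RIL68, the array that went the way of RIL66, a116pe0026 and a116pe0012 stood at -5.91 and -5.77. Leaving out that array was bound to widen these differences. Both probes were also named for a drought response already known to differ on these arrays, so the values are a description.

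**Figure D4:**
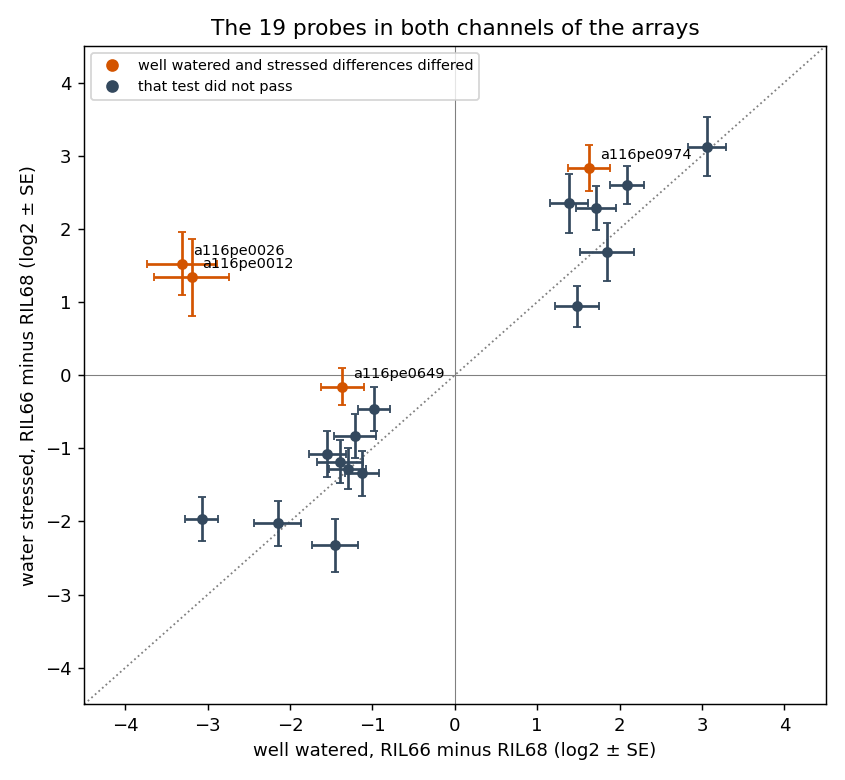
Line difference RIL66 minus RIL68 under water stress (vertical axis, log2 ± SE) against the same difference in well watered kernels (horizontal axis, log2 ± SE) for the 19 probes, with a dotted line where both are equal. The 4 orange points passed the test of the change between conditions, and a116pe0012 and a116pe0026 are the 2 points whose sign turned.

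The count of 19 moved with the arrays and the scaling. It was 10 without replicate 1 or 2 of RIL66, 6 without replicate 4 of RIL66, and 16, 27 and 28 without replicate 2, 3 and 4 of RIL68. Replicate 3 had the highest median background of that line (1299) and replicate 4 the lowest (397). When each array was left out in turn, 6 probes passed in all 8 fits: a116pe0520, a116pe0081, a116pe0026, a116pe0012, a116pe0094 and a116pe0356. Scaling by medians in place of quantiles gave 6 calls, and by the 75th percentile 2. The first split into 2 higher and 4 lower in RIL66, the second into 2 and 0. Those scalings moved the median difference of all probes from -0.01 to -0.145 and -0.236, so that each probe's difference under them is to be read against that shift. Without background correction the differences of the 19 were 0.397 to 0.851 times as large.

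**Figure D5:**
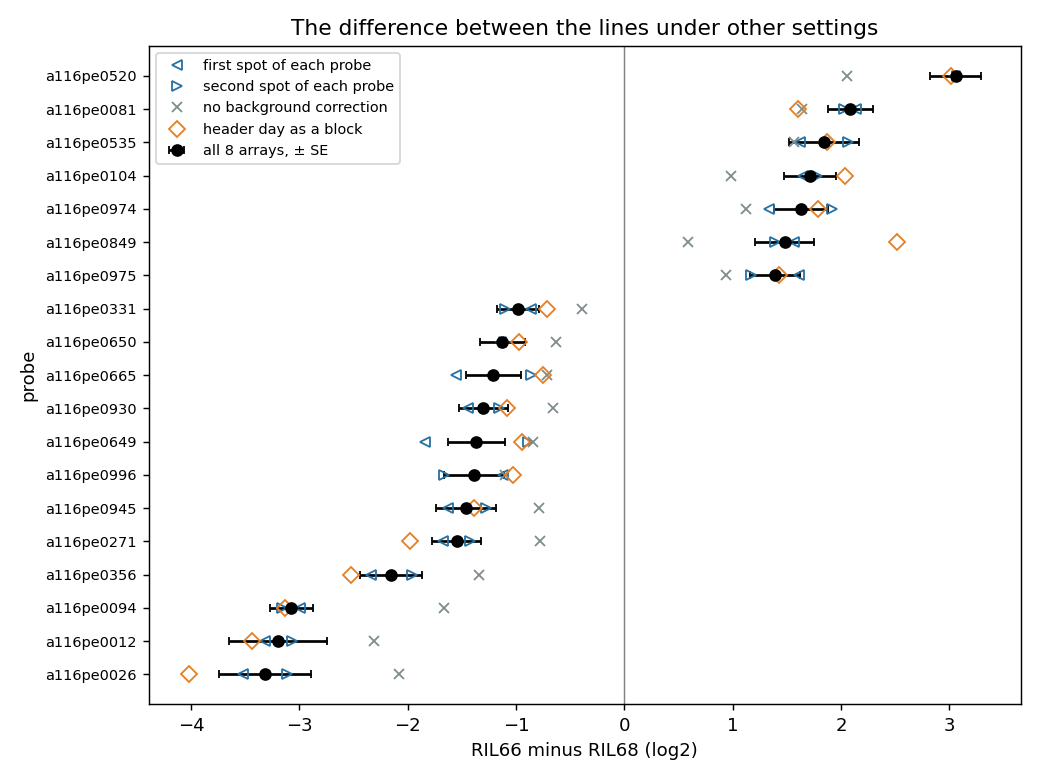
Difference RIL66 minus RIL68 in well watered kernels (horizontal axis, log2) for the 19 probes. Black points are the values over all 8 arrays with their SE, triangles use only the first or second spot of a probe, crosses leave out the background correction and diamonds take the header day as a block. The diamonds are RIL66 replicate 4 minus RIL68 replicate 1 alone, so their side of 0 follows from the choice of probes, and the crosses lie nearer to 0 than the black points.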

How the data were processed

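Slides were read with ScanArray software, per the file headers. For each spot and channel the authors deposited a linear intensity, a local background and its SD, without subtraction. Of the 2048 spots of an array, 48 are controls, and 1000 probes have 2 spots each. The deposited log2 ratio table (16 columns) holds no channel levels and was not used.

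Intensities of each well watered channel were corrected with limma 3.58.1 in R 4.3.3 (normexp, offset 50), put on the log2 scale, quantile-scaled between the 4 arrays of each dye and averaged over spots. Control spots and the 51 spots marked by the authors were left out; 1 probe lacks a value on 1 array. Saturated spots (1) were kept. Levels were fitted with line and dye as terms (lmFit, eBayes, Benjamini-Hochberg over 1000 probes, threshold 0.05) and checked on simulated data. Array measures were tested by exact permutation. Signal over background and the number of arrays limit the precision.

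The probes named are all those past the threshold with no overlap within either dye, up to 12 per direction, the 3 with the highest level and 4 known from earlier results. Comparison, lists and rules were chosen with earlier results of these data known. Lists of kernel tissue marker genes could not be matched to probe IDs. Replicate numbers were tested as pairs, and alternatives covered background, scaling, spots, dye, header day and arrays left out. Figures used matplotlib 3.10.9.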

Additional observations from a re-analysis of the deposited data

Results flagged for a closer look

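A single array lay far from the other 3 of its line in 5 of 56 groups tested (Dixon's criterion for 4 values, which chance passes in about 1 group of 20), after the dye effect was removed from the levels. RIL66 replicate 3 read 10.48 at a116pe0104, against 11.03 to 11.07 on the others. RIL66 replicate 2 read 8.95 at a116pe0930 (others 8.65 to 8.70) and 8.78 at a116pe0650 (9.22 to 9.30). RIL68 replicate 3 read 10.41 at a116pe0973 (10.84 to 10.91), and RIL68 replicate 2 read 15.32 at a116pe0575 (15.49 to 15.51).

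The line difference changed between the well watered and stressed channels at 5 named probes, by limma's test of the difference. It changed by -4.84 at a116pe0026 (adjusted p = 0.0154), by -4.53 at a116pe0012 (0.0284), by -1.21 at a116pe0649 (0.0284), by -1.20 at a116pe0974 (0.0154) and by 1.32 at a116pe0973 (0.0173). Probes a116pe0026, a116pe0012 and a116pe0973 were named because their drought response was already known to differ between the lines on these arrays, so their values restate that choice. Of the 6 calls over all probes, 0 were left with the replicate block, and 0 without replicate 1 or 4 of RIL66 or replicate 1 of RIL68. With the header day as a block the test rests on RIL66 replicate 4 against RIL68 replicate 1 alone.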

How the results depend on the processing

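Of 32 other settings for the well watered comparison, 18 gave a count within 1.5 times of 19. The others gave 6 with median scaling, 2 with 75th percentile scaling (2 higher and 0 lower), 37 with array weights, 29 with the separate channel model, 57 over 16 arrays, 9 and 61 at adjusted p of 0.01 and 0.1, 0 with the header day as a block and in its shared day, and 39 with the day as a random block (chosen after seeing the data). Leaving out 1 array gave 6 to 28. The stress count of 13 became 22 without background correction, 8 with median scaling, 21 with loess and Aquantile, 21 without the dye term, 43 with array weights, 52 with the separate channel model, 46 over 16 arrays, 33 at 0.1, 33 with the random day block and 0 in both other day fits; leaving out 1 array gave 9 to 19. The counts against the tolerant mean fell to 25 (RIL66) and 32 (RIL68) with median scaling, and ran from 27 to 53 and from 49 to 75 with 1 array left out. The change between conditions gave 21 probes without background correction, 0 with the replicate block, and 0 to 5 with 1 array left out. Its fit with the day as a block sets 1 array against 1 and is not counted here. The difference in spots above background was -1.06 percentage points at 1 background SD, from 18.0 at 2.

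The checks of whether replicate numbers pair the arrays disagreed. Correlations of same-numbered arrays were -0.03, 0.16, 0.12 and 0.14 as deviations from line means, which misses the 0.1 asked of every pair, but 0.29, 0.17, 0.45 and 0.15 after the dye term, where each array correlated best with its own number. The block result was known when the first version was taken as the rule. The replicate block gave 39 calls well watered, all 19 included, and 16 under stress. The interaction with dye could not be fitted with this block.

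With the RIL66 channels exchanged a116pe0026 read 1.89 and a116pe0012 1.55. Signs turned at 3 probes that never passed. Probe a116pe0267 read 0.06 with median scaling, 0.17 with the second spot, 0.12 with array weights, 0.15 and 0.14 in the day fits, 0.26 without RIL68 replicates 1 and 3, and -0.28 to 0.32 with 1 array left out. Probe a116pe0986 read -0.17 and -0.26 with median and 75th percentile scaling and -0.03 and -0.06 in the day fits. Probe a116pe0575 read -0.30, -0.40, -0.08 and -0.06 with median, 75th percentile, cyclic loess and loess with Aquantile scaling, -0.01 with the first spot or array weights, -0.06 in the separate channel model, -0.04 with the random day block, -0.16 with channels exchanged and -0.10 to 0.09 with 1 array left out. The causes were not tested.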
